A study of Mus musculus with 4 samples.

Results

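The genes described here make up the cholesterol pathway of the cell: enzymes of the mevalonate and sterol synthesis arms, the sterol regulatory element-binding protein (SREBP) machinery, the liver X receptors (LXR) and their targets, fatty acid synthesis, and sterol transport. Members were taken by name from a list of 37 gene symbols, by a rule that uses no measured value, and 31 of the 37 had a probe set with that symbol. They stand among 19505 genes in all. Acat2, Tm7sf2, Srebf1, Scd2, Nr1h2 and Soat1 had no probe set under their symbol in the annotation used and were not analysed here. The samples were macrophages sorted from hearts of C57BL/6N wild-type mice, 15 to 16 weeks of age, after transverse aortic constriction (TAC), a surgical narrowing that loads the left ventricle with pressure. The 6 hearts were pooled before sorting, so no library stands for a single animal. The 4 sorted populations are called Ccrl2, Trem2, CD163 and CD74 after their sample titles, and each gave 1 library on 1 Clariom S mouse array. All 4 came from mice with TAC, and no sham-operated library entered the comparisons. The labels put sampling 8 weeks after surgery in one place and 1 week after in another. They name CD9 for the library titled CD74, and list Lyve1 where the titles have CD163. The study's design text says only that macrophage subsets of control TAC hearts were profiled, and the question put to the data here is how the cholesterol genes differ among these 4 libraries.

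Cells make cholesterol from acetyl-CoA through mevalonate and squalene. When membrane sterol falls, the escort protein SCAP carries SREBP-2 from the endoplasmic reticulum for cleavage, and the released factor switches on the synthesis enzymes, while INSIG proteins hold the complex back when sterol is plentiful. Oxysterols formed when sterol is in excess activate LXR, which raises the exporters ABCA1 and ABCG1, the ubiquitin ligase MYLIP (also called IDOL) and the phospholipid enzyme LPCAT3. Macrophages that clear dead cells take up large amounts of cholesterol, and export through this route is a well-known part of their biology.

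Levels are deposited log2 values from robust multichip average (RMA) summaries. A gene counted as measured where its value exceeded the background ceiling of the array, the 95th percentile of 1500 chemosensory receptor and keratin-associated protein genes. The ceiling was 5.67 in Ccrl2, 5.51 in Trem2, 6.28 in CD163 and 6.53 in CD74, and 7454, 8144, 4984 and 3621 genes lay above it in the same order. With 1 library per population there is no replicate check, no p-value and no standard deviation, and precision is limited by having 4 arrays in all. Background genes give a scale for the scatter: 8.93% of them differed by 1 log2 unit or more between Ccrl2 and Trem2, and between 21.6% and 26.9% did so in the other 5 pairs of libraries. Levels of different genes are not set against each other, and marker lists are compared between libraries by the log2 of their summed linear levels, which the brightest gene can dominate.

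The CD74 library stood apart from the others in its cell type markers. Of 9 pan-macrophage genes with a probe set, all 9 lay above the ceiling in Ccrl2, Trem2 and CD163 and 7 in CD74, and their summed level was 21.09, 20.88, 20.72 and 15.92 on the log2 scale in Ccrl2, Trem2, CD163 and CD74. Csf1r, which encodes the receptor for colony-stimulating factor, had 19.59 in Ccrl2, 19.19 in Trem2, 18.60 in CD163 and 9.40 in CD74. Mertk and Fcgr1 lay under the ceiling in CD74. Of 10 T and NK cell genes, 0 lay above the ceiling in Ccrl2, 7 in Trem2, 1 in CD163 and 9 in CD74, with summed levels of 8.19, 10.85, 8.69 and 13.94. The Trem2 library carried neutrophil genes, with 6 of 6 above the ceiling and a summed level of 17.15, against 9.85 in Ccrl2, 8.55 in CD163 and 9.58 in CD74. Most of that sum is Retnlg, a neutrophil gene, which had 6.83 in Ccrl2, 16.81 in Trem2, 5.17 in CD163 and 7.15 in CD74. The transcripts behind the sort names did not all follow them. Ccrl2 had 16.58 in the Ccrl2 library, 16.59 in Trem2, 14.00 in CD163 and 9.58 in CD74, and Trem2 had 7.17, 7.20, 6.71 and, under the ceiling, 5.94 in the same order, so neither separated the Ccrl2 and Trem2 libraries. Cd163 had 13.01, 13.11, 14.51 and, under the ceiling, 4.96, and Lyve1 had 13.88, 14.32, 19.93 and, under the ceiling, 5.56, both highest in CD163. The Lyve1 value in CD163 is the top of the scale, which Lyz2 and Apoe share in Ccrl2, Trem2 and CD163, so values there have no order. Cd9, named in the source label of the CD74 library, had 10.79, 11.65, 9.35 and 8.69 and was lowest there, and the Cd74 gene was not analysed here. Adipocyte genes, looked at because fat cells are rich in Scd1, lay under the ceiling in all 4 libraries for all 4 genes. In bulk libraries, fewer cells of a type and less RNA per cell cannot be told apart.

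**Figure D1:**
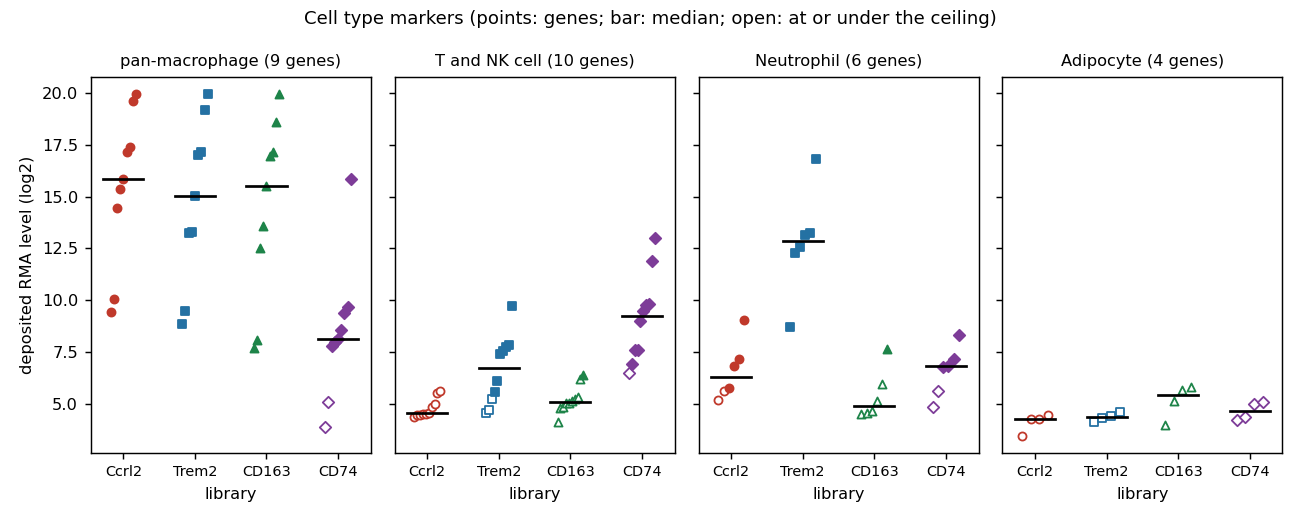
Deposited log2 level (vertical axis) of marker genes of 4 cell types in the Ccrl2, Trem2, CD163 and CD74 libraries (horizontal axis). Each point is a gene, filled where it lies above the library's background ceiling, and bars are medians; the macrophage median is 8.12 in CD74 against 15.01 or more in the other 3, while the T and NK cell median is highest in CD74 at 9.26.

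Abca1, Scd1 and Mylip had the widest ranges of the members, and 7 of the 16 synthesis enzymes with a probe set lay under the ceiling in every library. Of the 31 members, 23 lay above the ceiling in at least 1 library and 8 in none: Mvk, Pmvk, Mvd, Fdps, Sqle, Msmo1, Hsd17b7 and Fasn. By library, 20 members were measured in Ccrl2, 21 in Trem2, 13 in CD163 and 6 in CD74. Only 4, namely Srebf2, Abca1, Mylip and Npc2, were measured in all 4. Of the 23, 13 differed by at least 2-fold in at least 1 of the 6 pairs of libraries, which is close to the share among all 9346 genes measured in at least 1 library, 55.2%. Of 16 synthesis enzymes with a probe set, 9 were measured somewhere and 3 (Idi1, Sc5d and Dhcr7) reached 2-fold in some pair. Of 5 genes of LXR and its targets, all 5 were measured somewhere and 4 reached 2-fold. Abcg1 did not, and its levels lay too near the ceilings of CD163 and CD74 for a 2-fold call against them.

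**Figure D2:**
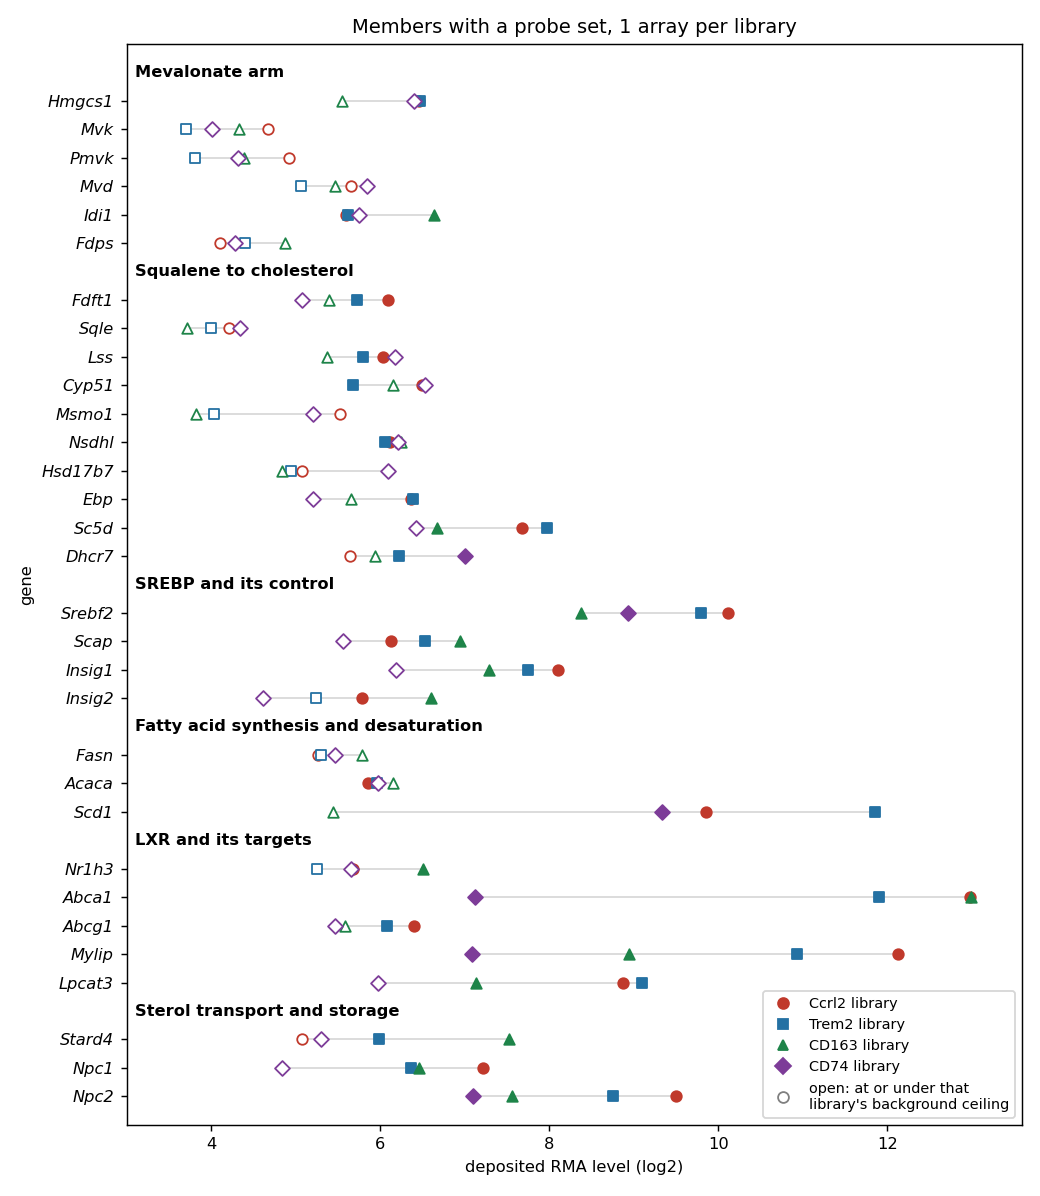
Deposited RMA level (log2, horizontal axis) of the 31 members with a probe set, grouped by role, in the 4 libraries; open symbols lie at or under that library's ceiling, and rows are not to be compared with one another. Most symbols of the synthesis enzymes are open and lie between 3.70 and 6.53, while Abca1, Mylip and Scd1 spread over 5 log2 units or more.

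Abca1, the pump that loads cholesterol onto apolipoprotein A-I, was high in 3 libraries and low in CD74. Its level was 12.98 in Ccrl2, 11.90 in Trem2, 12.99 in CD163 and 7.12 in CD74. That is 58.1-fold, 27.5-fold and 58.5-fold above CD74 in Ccrl2, Trem2 and CD163. Ccrl2 was also 2.11-fold above Trem2. Trem2 was 2.13-fold lower than CD163 (-1.09), a difference of -2.40 after quantile normalization of the columns that came to -0.92, under 2-fold, after median centring. Between Ccrl2 and CD163 the deposited values were level (-0.01), but after quantile normalization Ccrl2 lay 1.13 log2 units under CD163, with 12.21 in Ccrl2 and 13.34 in CD163. The differences against CD74, which followed those of the macrophage markers above, stayed at 4.35 in Ccrl2, 3.09 in Trem2 and 5.49 in CD163 after the same normalization. The part of macrophage RNA content in these differences was not tested.

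Mylip, the ligase that sends the low-density lipoprotein receptor for degradation, was highest in Ccrl2. Its level was 12.13 in Ccrl2, 10.93 in Trem2, 8.95 in CD163 and 7.09 in CD74. It was 2.30-fold above Trem2, 9.06-fold above CD163 and 32.9-fold above CD74, and so was the single member at least 2-fold above each other library in Ccrl2, a pattern shown by 2.61% of all measured genes. Quantile normalization kept that pattern (0.845% of all measured genes), with 11.31 in Ccrl2, 10.04 in Trem2, 9.44 in CD163 and 7.81 in CD74. The order Ccrl2, Trem2, CD163, CD74 was the same on both scales, although the Trem2 excess over CD163 was 1.98 log2 units as deposited and 0.59 after normalization.

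Lpcat3, which puts polyunsaturated chains into membrane phospholipids, had 8.87 in Ccrl2, 9.10 in Trem2, 7.13 in CD163 and 5.98, under the ceiling, in CD74. Ccrl2 and Trem2 were thus at least 5.06-fold and at least 5.94-fold above CD74, and 3.34-fold and 3.92-fold above CD163. After quantile normalization the excess over CD163 was 0.78 in Ccrl2 and 0.92 in Trem2, both under 2-fold. Abcg1, which passes cholesterol to high-density lipoprotein, had 6.40 in Ccrl2 and 6.08 in Trem2, beside values under the ceiling of 5.58 in CD163 and 5.46 in CD74. No pair reached 2-fold for Abcg1. Nr1h3, which encodes LXR alpha, had 5.68 in Ccrl2, 5.25 (under the ceiling) in Trem2, 6.51 in CD163 and 5.65 (under the ceiling) in CD74. Its single 2-fold difference was at the limit, at least 2-fold lower in Trem2 than in CD163. It came to -0.83 under median centring, and a ceiling at the 99th percentile of the background genes, 6.92 in CD163, left no measured Nr1h3 level. After quantile normalization Abca1 was the single member at least 2-fold above each other library in CD163 (2.64% of all measured genes). The Nr1h3 transcript was highest in CD163, at 6.51 against a ceiling of 6.28 there. As deposited, Mylip and Lpcat3 were lower in CD163 than in Ccrl2 and Trem2, and Abcg1 was under the CD163 ceiling. Abca1, in contrast, was level with Ccrl2 in CD163 and above Trem2.

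The promoters of Abca1 and Fasn are shown because each carries, letter for letter, one same direct repeat of the kind LXR binds. The lines give the 250 bases before the RefSeq start in build GRCm38.p6, read 5′ to 3′ on the gene's strand, with the element in capitals. The Abca1 stretch is chr4:53159896-53160145 and the Fasn stretch chr11:120824548-120824797, both on the minus strand.
Abca1: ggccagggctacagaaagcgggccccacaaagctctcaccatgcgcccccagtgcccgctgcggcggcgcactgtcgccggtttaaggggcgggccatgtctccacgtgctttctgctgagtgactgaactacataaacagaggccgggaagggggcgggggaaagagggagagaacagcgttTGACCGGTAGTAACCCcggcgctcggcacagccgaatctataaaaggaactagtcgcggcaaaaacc
Fasn: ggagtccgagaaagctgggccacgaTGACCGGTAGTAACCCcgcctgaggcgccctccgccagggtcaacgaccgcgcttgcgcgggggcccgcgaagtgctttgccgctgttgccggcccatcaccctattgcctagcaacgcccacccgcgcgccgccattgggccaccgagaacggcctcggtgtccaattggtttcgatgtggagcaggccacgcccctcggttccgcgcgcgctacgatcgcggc
The element, which reads GGGTTACTACCGGTCA on the opposite strand, begins at position -67 from the start in Abca1 and -225 in Fasn. The letters searched were NGGTTACTANCGGTCA on both strands, chosen after the Abca1 promoter had been read, and they occurred in 2 of 32851 promoter windows of 300 bases, which is 0.00609%. The stricter repeat, AGGTCA followed after any 4 bases by AGGTCA, was in 0 of the 38 windows of the 29 members in the promoter table and in 0.0152% of all windows. Fasn, the fatty acid synthase, had 5.27 in Ccrl2, 5.30 in Trem2, 5.79 in CD163 and 5.47 in CD74, all under the ceilings, so its order among the libraries was not measured.

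The Mylip promoter is shown for the member highest in Ccrl2, with NF-Y boxes (CCAAT, here on the opposite strand as ATTGG) and an Sp1 box (GGGCGG) in capitals. Its stretch is chr13:45389492-45389741 on the plus strand.
Mylip: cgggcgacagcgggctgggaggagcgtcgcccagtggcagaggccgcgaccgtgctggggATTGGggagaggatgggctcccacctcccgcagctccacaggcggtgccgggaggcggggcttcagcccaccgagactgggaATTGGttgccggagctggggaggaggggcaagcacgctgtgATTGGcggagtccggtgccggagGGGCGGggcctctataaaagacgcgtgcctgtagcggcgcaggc
The boxes begin at -190, -108 and -67 for NF-Y and at -44 for Sp1, and neither LXR repeat was in this window. NF-Y boxes, partners of SREBP at many sterol genes, were in 63.2% of the 38 member windows and in 37.4% of all windows. Sp1 boxes were in 73.7% and 35.7%. These are matches of letters, and nothing about binding follows from them.

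Scd1, the desaturase that makes oleic acid, had the widest spread outside the LXR group. Its level was 9.85 in Ccrl2, 11.86 in Trem2, 5.44 (under the ceiling) in CD163 and 9.34 in CD74. Trem2 was thus highest and CD163 alone lacked a measured level. Ccrl2 was 4.03-fold lower than Trem2. Ccrl2 and Trem2 were at least 11.9-fold and at least 47.8-fold above CD163, and CD163 was at least 8.34-fold below CD74. Scd1 was 5.74-fold higher in Trem2 than in CD74, but quantile normalization left a difference of 0.24, with 10.89 in Trem2 and 10.65 in CD74. On the deposited values it was the single member at least 2-fold above each other library in Trem2 (3.85% of all measured genes), and after quantile normalization there were 0 (0.77%).

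Of the marker lists, those of B cells, neutrophils and monocytes, but not the others, had their highest sum in Trem2 and lowest in CD163, as Scd1 did. T and NK cell sums were highest in CD74 and lowest in Ccrl2. Endothelial and cardiomyocyte sums were highest in Trem2 and lowest in CD74. The summed level of 4 B cell genes was 10.19 in Ccrl2, 12.36 in Trem2, 7.30 in CD163 and 10.95 in CD74, highest and lowest in the same libraries as Scd1, with 4, 4, 1 and 4 of the 4 above the ceiling. Neutrophil sums were 9.85 in Ccrl2, 17.15 in Trem2, 8.55 in CD163 and 9.58 in CD74, the same order of libraries as deposited Scd1. The 4 monocyte genes summed to 9.27 in Ccrl2, 13.004 in Trem2, 7.55 in CD163 and 12.82 in CD74, with 3, 4, 1 and 3 above the ceiling. All these sums are of deposited values. Deposited Scd1 was higher in Ccrl2 than in CD74, whereas the B cell and monocyte sums were lower in Ccrl2. The order of the B cell and monocyte sums was that of Scd1 only once Scd1 was quantile-normalized (9.13, 10.89, 5.37 and 10.65). The part of B cell, neutrophil and monocyte RNA in the Scd1 result was not tested. The 4 adipocyte genes were not measured in any library, with values between 3.48 and 5.82. Acaca, which supplies malonyl-CoA for fatty acid synthesis, had 5.86 in Ccrl2, 5.96 in Trem2, 6.15 in CD163 and 5.98 in CD74. It had no measured level in CD163 or CD74 and no 2-fold call, which those ceilings did not allow.

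Stard4, a small soluble carrier of cholesterol between membranes, showed the reverse of Scd1 in CD163. Its level was 5.07 (under the ceiling) in Ccrl2, 5.99 in Trem2, 7.53 in CD163 and 5.30 (under the ceiling) in CD74. Ccrl2 was at least 3.63-fold and Trem2 2.91-fold lower than CD163, and CD163 was at least 2-fold above CD74. Stard4 was the single member at least 2-fold above each other library in CD163, against 0.835% of all measured genes. Both differences from Ccrl2 and Trem2 held after quantile normalization (-2.24 and -2.02), whereas the bound against CD74 was 0.96 after quantile normalization, 0.99 after median centring, 0.29 with the 99th percentile ceiling, and 0.72 with matched columns, that is, columns set to one median over the genes measured in all 4 libraries.

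Npc2, which hands cholesterol out of the lysosome, had 9.50 in Ccrl2, 8.75 in Trem2, 7.56 in CD163 and 7.10 in CD74. Ccrl2 was 3.84-fold above CD163 and 5.28-fold above CD74, and Trem2 2.28-fold and 3.14-fold. After quantile normalization the 4 levels were 8.80 in Ccrl2, 8.10 in Trem2, 7.98 in CD163 and 7.83 in CD74, and no pair reached 2-fold. With matched columns, the Trem2 difference from CD163 turned to -0.035. Its membrane-bound partner Npc1 had 7.22 in Ccrl2, 6.36 in Trem2, 6.46 in CD163 and 4.84 (under the ceiling) in CD74. No pair was counted as 2-fold apart, but the CD74 ceiling allowed no call against CD74 at these levels. As deposited, the Npc1 differences from CD74 were 2.38 in Ccrl2, 1.52 in Trem2 and 1.62 in CD163.

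**Figure D3:**
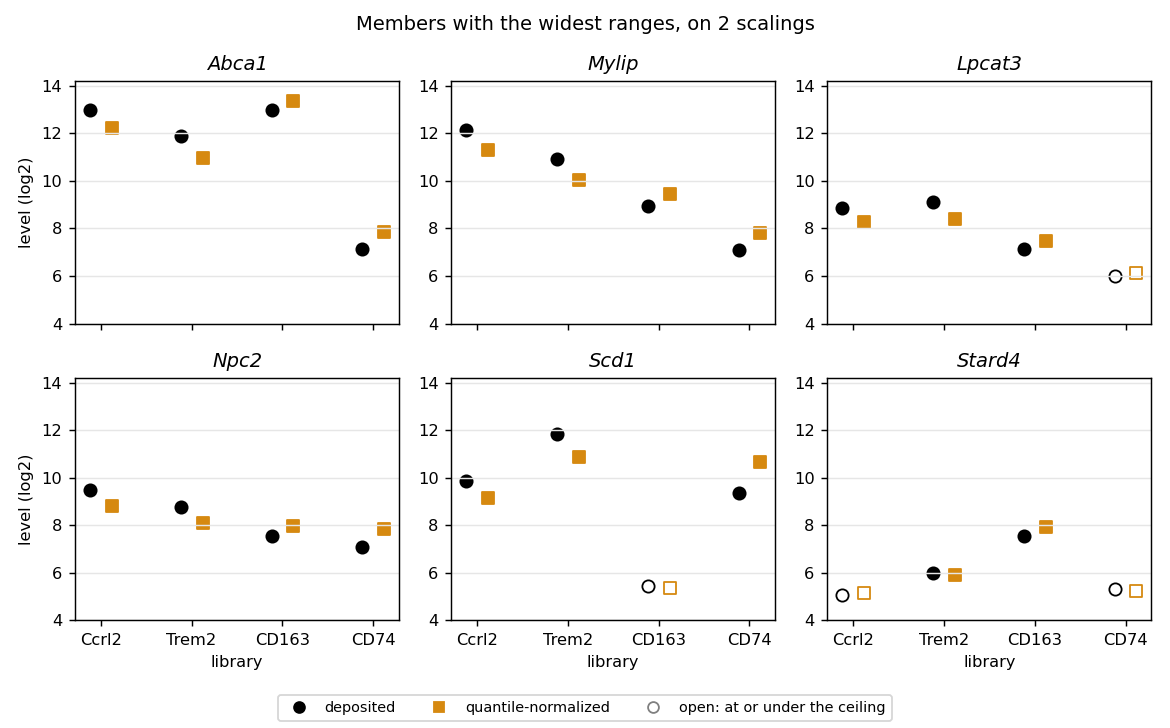
Levels (log2, vertical axis) of the 6 members with the widest ranges in each library (horizontal axis), as deposited (circles) and after quantile normalization (squares), open where at or under the ceiling. Mylip keeps its order of libraries on both scales, Scd1 in CD74 moves from 9.34 to 10.65, and the Npc2 levels close up to between 7.83 and 8.80.

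Among the SREBP genes, Srebf2 and Insig1 had higher deposited values in Ccrl2 and Trem2 than in CD163 and CD74. Of the other members with a 2-fold call, Lpcat3, Npc2, Sc5d, Mylip and Scd1 had the same split. Hmgcs1, Fdft1, Ebp and Abcg1 had it without such a call. After quantile normalization, however, Srebf2 was highest in CD74 and Insig1 in CD163. Summed levels of fibroblast, endothelial and cardiomyocyte genes were also higher in Ccrl2 and Trem2. So were the 95th percentiles of the whole columns, at 10.18 in Ccrl2, 10.25 in Trem2, 8.91 in CD163 and 8.30 in CD74. The split was thus not particular to these lists. Summed levels of 4 fibroblast genes were 12.82 in Ccrl2, 12.79 in Trem2, 8.58 in CD163 and 8.62 in CD74, with 4, 4, 2 and 2 above the ceiling. In Ccrl2 and Trem2 most of that sum is Dcn. Col1a1 did not split this way, with 7.92 in Ccrl2, 6.91 in Trem2, 6.82 in CD163 and 7.87 in CD74. Summed levels of 5 endothelial genes were 15.01 in Ccrl2, 17.13 in Trem2, 12.42 in CD163 and 11.43 in CD74, with 5, 5, 3 and 2 above the ceiling. Most of each of these sums is Fabp4. Cardiomyocyte sums were 13.06 in Ccrl2, 13.73 in Trem2, 11.98 in CD163 and 11.07 in CD74. The part of these cell types in the differences of the members with this split was not tested. Srebf2, which encodes SREBP-2, had 10.11 in Ccrl2, 9.80 in Trem2, 8.38 in CD163 and 8.93 in CD74. Ccrl2 was 3.32-fold and Trem2 2.68-fold above CD163, but after quantile normalization these excesses were 0.48 and 0.13. The 2.27-fold excess of Ccrl2 over CD74 turned round under that normalization, to -0.81, and to -0.185 with matched columns. The direction of Srebf2 against CD74 is therefore unsettled. Insig1, a SREBP target that retains the complex, had 8.11 in Ccrl2, 7.75 in Trem2, 7.29 in CD163 and 6.19 (under the ceiling) in CD74. Ccrl2 was at least 2.99-fold and Trem2 at least 2.33-fold above CD74, neither of which reached 2-fold after quantile normalization (0.64 and 0.27), and the Trem2 difference turned to -0.285 with matched columns.

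The other anchor protein, Insig2, and the escort Scap were highest in CD163. Insig2 had 5.78 in Ccrl2, 5.24 (under the ceiling) in Trem2, 6.60 in CD163 and 4.61 (under the ceiling) in CD74, and was at least 2.13-fold lower in Trem2 than in CD163. That difference came to -0.92 under median centring and was lost with the 99th percentile ceiling, 6.92 in CD163. Scap had 6.13 in Ccrl2, 6.53 in Trem2, 6.95 in CD163 and 5.56 (under the ceiling) in CD74. No pair was counted as 2-fold apart, but CD163 minus CD74 was 1.39 as deposited and 0.42 with CD74 set to its ceiling. The promoters of Srebf2 and of Hmgcs1, a synthesis enzyme, are shown for letters of a sterol response element. Of the member windows searched, only that of Hmgcs1 held TCACNCCAC, and that of Srebf2 matched only TCACCCCAN.
Srebf2: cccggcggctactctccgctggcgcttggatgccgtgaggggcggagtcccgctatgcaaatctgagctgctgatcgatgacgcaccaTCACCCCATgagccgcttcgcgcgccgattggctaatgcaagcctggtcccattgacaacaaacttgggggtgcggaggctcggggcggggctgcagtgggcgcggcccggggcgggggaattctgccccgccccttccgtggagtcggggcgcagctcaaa
Hmgcs1: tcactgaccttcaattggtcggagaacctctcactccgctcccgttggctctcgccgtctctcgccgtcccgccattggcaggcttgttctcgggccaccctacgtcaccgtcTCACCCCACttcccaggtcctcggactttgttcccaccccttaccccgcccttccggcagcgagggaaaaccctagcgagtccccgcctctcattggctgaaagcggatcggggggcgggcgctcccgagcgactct
The stretches are chr15:82147019-82147268 and chr13:119690101-119690350, both on the plus strand, with the element in capitals at -162 in Srebf2 and -137 in Hmgcs1. The letters TCACNCCAC were in 1 of the 38 member windows (2.63%) and in 1.24% of all windows. The letters TCACCCCAN, searched after the Srebf2 promoter had been read, were in 2 of 38 (5.26%) and in 1.55%.

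In the mevalonate arm, 2 of 6 enzymes with a probe set were measured anywhere. Hmgcs1, which forms the precursor of mevalonate, had 6.46 in Ccrl2 and 6.47 in Trem2, beside values under the ceiling of 5.55 in CD163 and 6.40 in CD74. No pair was counted as 2-fold apart, and so near the ceilings no call against CD163 or CD74 was possible. Idi1, which isomerises isopentenyl diphosphate, had 5.59 (under the ceiling) in Ccrl2, 5.62 in Trem2, 6.64 in CD163 and 5.75 (under the ceiling) in CD74. It was 2.03-fold lower in Trem2 than in CD163, a difference that came to -0.85 under median centring and was lost with a ceiling at the 99th percentile (6.92 in CD163). Mvk, Pmvk, Mvd and Fdps had values between 3.70 and 5.84, all under the ceilings.

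From squalene onward, 7 of 10 enzymes were measured in at least 1 library. Sc5d, the lathosterol desaturase, had 7.68 in Ccrl2, 7.98 in Trem2, 6.67 in CD163 and 6.43 (under the ceiling) in CD74. Ccrl2 and Trem2 were 2.01-fold and 2.48-fold above CD163 and at least 2.22-fold and at least 2.73-fold above CD74. None of these stayed at 2-fold after quantile normalization (0.37, 0.53, 0.31 and 0.46), and with matched columns 3 turned slightly negative, Ccrl2 against CD163 at -0.075, Ccrl2 against CD74 at -0.215 and Trem2 against CD74 at -0.055. Dhcr7, the enzyme of the final step to cholesterol, was the single member with its highest measured level in CD74, at 5.64 (under the ceiling) in Ccrl2, 6.22 in Trem2, 5.94 (under the ceiling) in CD163 and 7.00 in CD74. Ccrl2 was at least 2.51-fold lower than CD74, a call lost with a ceiling at the 99th percentile (7.24 in CD74). On the deposited values 0 members stood at least 2-fold above all 3 other libraries in CD74, as 1.78% of all measured genes did. After quantile normalization Dhcr7 was at least 2-fold above each other library in CD74, as were 8.57% of all measured genes.

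The other enzymes of that arm had no 2-fold call, and levels so near the ceilings of CD163 and CD74 left no room for one against those libraries. Fdft1 (squalene synthase), Lss (lanosterol synthase), Nsdhl and Ebp were measured in Ccrl2 and Trem2 and in neither other library. Their levels ran from 6.03 to 6.37 in Ccrl2 and 5.73 to 6.39 in Trem2. Cyp51, the lanosterol demethylase, had 6.49 in Ccrl2, 5.68 in Trem2, 6.15 (under the ceiling) in CD163 and 6.53 (at the ceiling) in CD74. Sqle, Msmo1 and Hsd17b7 were under the ceiling throughout, with values between 3.72 and 6.09.

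Between Ccrl2 and Trem2, the closest pair, 3 of 23 measured members were at least 2-fold apart: Abca1 and Mylip were higher in Ccrl2 and Scd1 was lower. Among all 8773 genes measured in either library, 5.43% were higher and 7.92% lower, so shares of 8.70% and 4.35% among 23 members do not set the pathway apart. The median difference of the members was 0.23, against -0.08 for all genes. The same 3 members were called after quantile normalization, beside 3.83% of all genes higher and 4.19% lower.

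Against CD163, 6 of 22 measured members were higher in Ccrl2 (Sc5d, Srebf2, Scd1, Mylip, Lpcat3 and Npc2) and Stard4 was lower. Of all genes in that pair, 28.1% were higher and 5.03% lower. The members' median difference of 0.71 lay beside a general shift of 0.69 over all genes, and turned to -0.375 with matched columns. After quantile normalization, which brought the general shift to 0.19, Scd1 and Mylip were higher in Ccrl2 and 6 members lower, beside 9.44% and 13.3% of all genes. Those 6 were Idi1, Scap, Insig2, Nr1h3, Abca1 and Stard4. The split of higher and lower calls in this pair thus depends on the scaling.

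Against CD74, 7 of 21 members were higher in Ccrl2 (Sc5d, Srebf2, Insig1, Abca1, Mylip, Lpcat3 and Npc2) and Dhcr7 was lower. All genes gave 32% and 7.8%, and the median was 1.02 for the members and 0.96 for all genes, with the members' turning to -0.345 with matched columns. After quantile normalization Abca1, Mylip and Lpcat3 were higher and Dhcr7 and Scd1 lower, beside 12.1% and 20.3% of all genes.

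Trem2 compared with CD163 gave 6 of 23 members higher (Sc5d, Srebf2, Scd1, Mylip, Lpcat3 and Npc2) and 5 lower (Idi1, Insig2, Nr1h3, Abca1 and Stard4). Each comparison with CD163 uses the same single library. All genes gave 27.6% higher and 6.07% lower, and the median difference was 0.34 for the members and 0.69 for all genes, so that the members' was -0.35 with the general shift removed and -0.885 with matched columns. After quantile normalization Scd1 was higher and the same 5 were lower, beside 9.99% and 14.9%. Of 21 members measured in Trem2 or CD74, 7 were higher in Trem2 (Sc5d, Insig1, Scd1, Abca1, Mylip, Lpcat3 and Npc2) and 0 lower, beside 32.6% and 7.62% of all genes, with medians of 0.87 for the members and 1.01 for all genes. The members' median turned to -0.14 with the general shift removed and to -0.635 with matched columns. Quantile normalization left Abca1, Mylip and Lpcat3 higher and put Dhcr7 and Srebf2 lower, beside 10.6% and 18.1%.

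Between CD163 and CD74, 15 members were measured in either library. Abca1, Mylip and Stard4 were higher in CD163 and Scd1 was lower, beside 19.3% and 9.98% of all genes. The median difference was 1.10 for the members and 0.47 for all genes. After quantile normalization Abca1 and Mylip were higher and Dhcr7, Srebf2 and Scd1 lower, beside 15.9% and 21.2%.

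**Figure D4:**
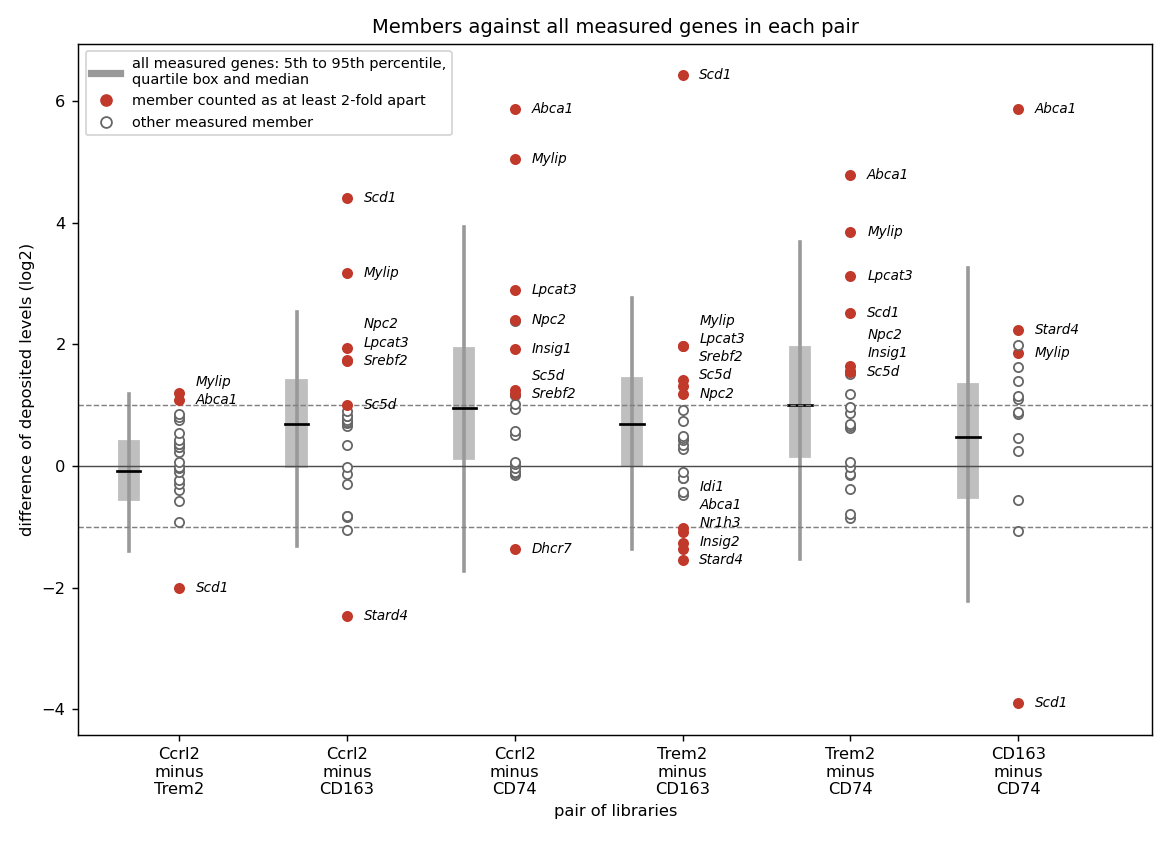
Difference of deposited levels (log2, vertical axis) in each pair of libraries (horizontal axis) for measured members (points) beside all measured genes (grey bar from the 5th to the 95th percentile, box of quartiles, black median). Named red points were counted as at least 2-fold apart with values under a ceiling set to it, and the members' medians on this scale run from 0.23 in Ccrl2 minus Trem2 to 1.10 in CD163 minus CD74, while 4 of the 6 turn negative with matched columns, all but Ccrl2 minus Trem2 and CD163 minus CD74.

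Of the 40 calls of a member in a pair, 16 held under quantile normalization, median centring, matched columns, no ceiling, a ceiling at the 99th percentile and the mean over probe sets. They belonged to 5 genes: Abca1, Mylip, Scd1, Stard4 and Lpcat3. No such count over all genes stands beside it, so whether member calls held more often than others is not known. For Abca1 they were Ccrl2 over Trem2 and each of Ccrl2, Trem2 and CD163 over CD74. For Mylip they were Ccrl2 over each other library and Trem2 and CD163 over CD74. Scd1 kept Ccrl2 under Trem2 and both Ccrl2 and Trem2 over CD163, and CD163 under CD74, while Stard4 kept Ccrl2 and Trem2 under CD163 and Lpcat3 kept Trem2 over CD74.

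Other genes of sterol uptake, LXR partnership and lipid handling were taken from a list of 40, of which 32 had a probe set. Of 23 measured in Ccrl2 or CD74, 15 were at least 2-fold higher in Ccrl2 and 1 lower, beside 32% and 7.8% of all genes, and after quantile normalization 8 were higher and 2 lower, beside 12.1% and 20.3%. Of 25 measured in Trem2 or CD74, 13 were higher in Trem2 and 0 lower, beside 32.6% and 7.62%, and after normalization 9 and 2, beside 10.6% and 18.1%. Of 19 measured in CD163 or CD74, 8 were higher in CD163 and 2 lower on both scales, beside 19.3% and 9.98% of all genes as deposited and 15.9% and 21.2% after normalization. The 8 genes higher in CD163 included Apoe, Pltp and Cd36, and the 2 lower were Lbr and Nceh1.

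Of 25 measured in Ccrl2 or Trem2, Mbtps1, Rxra and Plin2 were higher in Ccrl2 and Lbr was lower, beside 5.43% and 7.92% of all genes. Of 23 measured in Ccrl2 or CD163, 11 were higher in Ccrl2 and Pltp was lower, beside 28.1% and 5.03%, and after quantile normalization Mbtps1 and Nceh1 were higher and Pltp lower, beside 9.44% and 13.3%. Of 25 measured in Trem2 or CD163, 8 were higher in Trem2 and Pltp was lower, beside 27.6% and 6.07%. After normalization Ggps1, Acly and Cd36 were higher in Trem2 and Rxra, Pltp, Msr1 and Plin2 lower, beside 9.99% and 14.9%.

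The 8 genes of that list with the widest ranges were each lowest in CD74. Pltp, the phospholipid transfer protein and an LXR target, had 13.77 in Ccrl2, 13.10 in Trem2, 16.05 in CD163 and 7.42 in CD74. Cd36, a scavenger receptor for oxidised lipoprotein, had 12.32 in Ccrl2, 12.56 in Trem2, 10.15 in CD163 and 5.69 in CD74. Plin2, which coats lipid droplets, had 11.74 in Ccrl2, 10.61 in Trem2, 11.20 in CD163 and 6.22 in CD74. Pltp was highest in CD163, while Cd36 was highest in Trem2 and Plin2 in Ccrl2. Lipa, the lysosomal lipase that frees cholesterol from its esters, had 9.14 in Ccrl2, 8.69 in Trem2, 7.80 in CD163 and 4.36 in CD74. Cyp27a1, which makes an oxysterol ligand of LXR, had 7.27 in Ccrl2, 8.24 in Trem2, 6.56 in CD163 and 4.36 in CD74. Lrp1, Mertk and Msr1, receptors for lipoproteins, dying cells and modified lipids, had 11.18, 9.45 and 9.38 in Ccrl2, 11.06, 8.85 and 8.93 in Trem2, 10.63, 8.08 and 8.98 in CD163, and 4.67, 3.90 and 5.66 in CD74. Of these 8 genes, Pltp was the only one above the ceiling in CD74, the library in which macrophage markers were low, and Mertk is itself one of those markers. The part of macrophage RNA content was not tested.

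**Figure D5:**
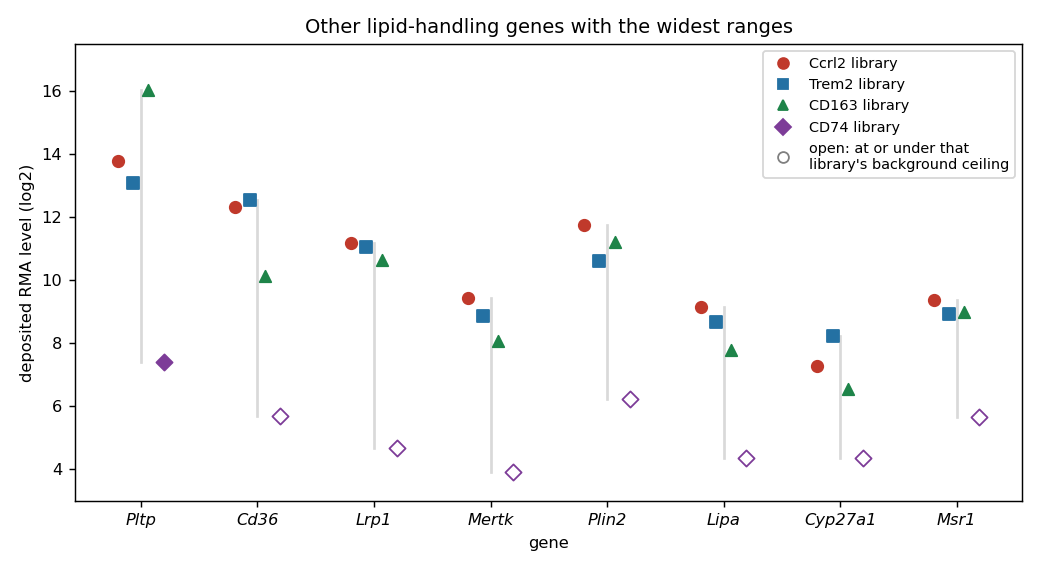
Deposited level (log2, vertical axis) of the 8 further lipid-handling genes with the widest ranges (horizontal axis) in the 4 libraries, open where at or under the ceiling. CD74 is lowest for all 8, and Pltp is highest in CD163 at 16.05.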

How the data were processed

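The data were 4 Clariom S mouse arrays, 1 per library. Per the labels' protocols, the authors amplified total RNA with a whole-transcript kit for small inputs, hybridised it, and obtained deposited log2 values by RMA background correction, normalization and summary, and then used GeneSpring GS 11; Affymetrix Expression Console is named in the submitters' processing notes. For RMA settings, the sources used here give nothing. Values ran on a log2 scale from 2.97 to 19.93. The columns did not share a distribution: 95th percentiles over gene probe sets were 10.18 in Ccrl2, 10.25 in Trem2, 8.91 in CD163 and 8.30 in CD74.

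Of 28846 probe sets, 6640 were controls, and of the other 22206, 19572 had 1 gene symbol in the platform annotation, 0 several and 2634 none. Of 55 genes with several probe sets the one with the highest mean was used; no member had several. A member was counted as higher or lower when at least 2-fold (1 log2 unit) apart after values under a library's ceiling were set to that ceiling, with the brighter value above its own; a fold against a value under the ceiling is a lower bound, written "at least". A gene less than 1 log2 unit above a library's ceiling could therefore not be counted as higher than in that library. Medians use the deposited differences. No test was possible with 1 library per group. Alternatives were quantile normalization, median centring, no ceiling or a 99th percentile ceiling, thresholds of 1.5-fold and 4-fold, the mean over probe sets, and leaving out a library; removal of the general shift and columns matched on the 2684 genes measured in all 4 libraries were chosen after seeing the data. Simulated data were used to test how members were called.

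All members with a probe set were to be described, with values in each library for those at least 2-fold apart in some pair; of the other pathway genes the 8 with the widest range were named, and of marker lists up to 3. Mertk and Fcgr1, Col1a1, Acaca, Hmgcs1, Abcg1, Npc1, Scap and Cyp51 are named beyond that rule. Members and lists were chosen with earlier results of these data known. Promoters are from RefSeq on GRCm38.p6 (250 bases before to 50 after the start). Of the 37 members 29 matched, and Abcg1, Fdft1, Fdps, Npc1, Scd1, Scd2, Sqle and Stard4 did not. Python 3.11.15, numpy 2.4.6 and pandas 2.3.3 were used.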

Additional observations from a re-analysis of the deposited data

How the results depend on the processing

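With 1 library per population no result has a replicate check, and signal over background limits CD74 most, where 6 members were measured. Of the 40 calls of a member in a pair, 22 held after quantile normalization, 35 after median centring, 40 without the ceiling, 30 with the 99th percentile ceiling, 40 with the mean over probe sets and 23 with columns matched on shared genes, an alternative chosen after seeing the data. Reversed were Srebf2 in Ccrl2 against CD74 (-0.81 by quantile normalization, -0.185 with matched columns) and, with matched columns, Sc5d in Ccrl2 against CD163 (-0.075) and CD74 (-0.215) and in Trem2 against CD74 (-0.055), Insig1 in Trem2 against CD74 (-0.285) and Npc2 in Trem2 against CD163 (-0.035). The cause was not tested, and no counts over all genes stand beside those of the 40 calls. Counts that moved by over 1.5 times are given next, as members higher or lower in the library named before the stroke.

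For Ccrl2/Trem2, higher were 4 without the ceiling, 5 at 1.5-fold and 0 at 4-fold, against 2 in the main count. For Ccrl2/CD163, higher were 2 by quantile normalization, 2 at 4-fold and 2 with matched columns (main 6). Lower there were 6 by quantile normalization, 2 without the ceiling, 5 at 1.5-fold, 0 at 4-fold, 5 with the general shift removed and 6 with matched columns (main 1). For Ccrl2/CD74, higher were 3 by quantile normalization, 11 without the ceiling, 4 at 4-fold, 4 with the shift removed and 3 with matched columns (main 7). Lower there were 2 by quantile normalization, 2 without the ceiling, 0 with the 99th percentile ceiling and 0 at 4-fold (main 1). For Trem2/CD163, higher were 1 by quantile normalization, 1 at 4-fold, 3 with the shift removed and 1 with matched columns (main 6). Lower there were 1 by median centring, 2 with the 99th percentile ceiling and 0 at 4-fold (main 5). For Trem2/CD74, higher were 3 by quantile normalization and 4 each at 4-fold, with the shift removed and with matched columns (main 7). Lower there were 2 by quantile normalization, 2 without the ceiling, and 1 each at 1.5-fold, with the shift removed and with matched columns (main 0). For CD163/CD74, higher were 8 without the ceiling, 5 at 1.5-fold and 1 at 4-fold (main 3). Lower there were 3 by quantile normalization, 4 without the ceiling, 2 at 1.5-fold, 3 with the shift removed and 2 with matched columns (main 1). The members' median difference turned with the general shift removed to -0.35 in Trem2/CD163 and -0.14 in Trem2/CD74, and came to 0.06 in Ccrl2/CD74. With matched columns it turned to -0.375 in Ccrl2/CD163, -0.345 in Ccrl2/CD74, -0.885 in Trem2/CD163 and -0.635 in Trem2/CD74. Without the ceiling it was 0.12 in Trem2/CD74 and 0.32 in CD163/CD74, and with the 99th percentile ceiling 0.025 in Ccrl2/Trem2.

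Members above each other library numbered 1 in Ccrl2, against 3 at 1.5-fold, 0 at 4-fold, 5 without the Trem2 library and 2 without the CD163 library. In Trem2 the main count of 1 became 0 by quantile normalization and 5 without the Ccrl2 library. In CD163 the count of 1 became 0 by median centring, with the 99th percentile ceiling and at 4-fold, and 2 without the Ccrl2 library. In CD74 the count of 0 became 1 by quantile normalization, without the ceiling and at 1.5-fold. No paired analysis was possible because each population had 1 library and no test was made.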
